A study of Sorghum bicolor with 96 samples.

Results

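The genes described here are the 69 genes of the sorghum leaf whose transcript level was higher after 1 h of cold and also higher after 1 h of heat when the stress fell at ZT1, in every genotype label tested. Zeitgeber time (ZT) counts hours of the day cycle from its start. The genes were chosen from the measured values themselves. Counts were divided by the library's total and scaled to CPM (counts per 1000000), and the 16216 of 34129 genes with a mean of 2 CPM or more over the 96 libraries were kept. For each group of 3 libraries, log2 of the mean CPM plus 1 was taken and centred on the group's median gene, and the difference was stress minus control. A gene became a member where all 4 ZT1 differences were 1 or more and where at least 1 of the 8 cold and at least 1 of the 8 heat differences stayed below 1. The first condition was met by 110 genes. Of these, 37 were left out because all 8 cold differences reached 1 and 12 because all 8 heat differences did, 8 of them on both counts, which left 69. The rule's limit of 150 genes was not reached.

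Leaves of Sorghum bicolor, a C4 cereal of warm climates, were taken in 2 experiments, in both of which the growth chambers ran at 30 °C in the day and 20 °C in the night. In the cold experiment, plants of the label SC224 (tolerant) and of the label RTX430 (sensitive) spent 1 h at 10 °C, and in the heat experiment plants of the label Macia (tolerant) and of RTX430 spent 1 h at 42 °C, each beside controls without the stress. The stress was given at ZT1, ZT6, ZT9 or ZT15, the last of these in the night, which made 32 groups of 3 biological replicates. The labels "cold RTX430", "cold SC224", "heat RTX430" and "heat Macia" are used below for an experiment and its genotype label.

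Plants sense cold and heat by partly different routes, but both set off general early signals such as calcium influx, reactive oxygen and protein kinase cascades, and both change transcription within the hour. The circadian clock gates many of these responses, so that the same stress changes a gene strongly at some hours and little at others, and it also sets the level of many stress genes in unstressed leaves. Cold acts early on transcription through CBF/DREB factors, and heat through heat stress factors that raise chaperones. The count table names genes by identifier alone and no annotation used here pairs these identifiers with a gene name, so the members are given by identifier and no role is assigned to any of them.

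The libraries held 1059841 to 11545393 counts (median 3642164.5), so a gene near 1 CPM rests on a few counts in each library. The RTX430 label did not stand for the same set of expressed genes in the 2 experiments: 250 genes had a median above 3 CPM under one RTX430 label and below 0.05 CPM under the other, while 6 genes switched in this way between cold SC224 and heat RTX430. None (0) of the 250 genes was a member. A control library of heat RTX430 at ZT15 (replicate 1) and a control library of cold SC224 at ZT1 (replicate 1) carried 415 and 130 summed CPM of 59 genes that mark cold RTX430, against at most 8.84 CPM in any other library of the labels that lack them. The same 2 libraries carried 300 and 194 summed CPM of 45 genes that mark Macia, against at most 7.89 CPM elsewhere. A stress library of heat RTX430 (replicate 2) is titled as ZT1 but carries ZT2 in its other labels. Several of the counts and levels that rest on these 3 libraries are also given without them. The others, among them most counts that combine several contrasts, are given with all libraries only.

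At ZT1 the members stood well above low control levels under either stress. The median member stood at 21.1 CPM in the stress libraries and at 4.34 CPM in the controls of cold RTX430. In cold SC224 it stood at 23.9 CPM under stress and 3.41 CPM in controls, in heat RTX430 at 20.5 and 6.37 CPM, and in heat Macia at 23.6 and 4.91 CPM. Summed over the 69 members, the transcripts made up 2686 ± 25.3 CPM in the stress libraries and 508 ± 80.0 CPM in the controls of cold RTX430 (SD, n = 3 each). In cold SC224 the sums were 3016 ± 1486 CPM under stress and 469.5 ± 74.8 CPM in controls (SD, n = 3 each). The wide spread came from 1 stress library, replicate 2, whose sum of 4729 CPM was the highest of the 12 ZT1 stress libraries. In heat RTX430 the sums were 2663 ± 467 CPM under stress and 790 ± 250 CPM in controls, and in heat Macia they were 3037 ± 636 CPM under stress and 678 ± 123 CPM in controls (SD, n = 3 each). In every label the lowest stress library lay above the highest control library in this sum. These values follow from the rule and are a description, with no test. Without the doubted libraries, the mean sum was 440 CPM in cold SC224 controls and 2816 CPM in heat RTX430 stress libraries, and the median member stood at 3.83 and 20.8 CPM there.

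The size of the ZT1 difference varied widely among members. The median difference was 1.81 in cold RTX430, 1.72 in cold SC224, 2.00 in heat RTX430 and 2.19 in heat Macia, on the centred log2(CPM + 1) scale, on which low genes change less than their ratio of levels. Over all 16216 genes a difference of 1 or more was reached by 4.22% in cold RTX430, 5.93% in cold SC224, 19% in heat RTX430 and 17.9% in heat Macia, so the cold condition was met by far fewer genes than the heat condition. The 3 stress libraries lay above all 3 controls in 64 members in cold RTX430, 61 in cold SC224, 63 in heat RTX430 and 67 in heat Macia, where 10.2%, 9.71%, 24.3% and 25.6% of all genes did so. By edgeR's quasi-likelihood test with Benjamini-Hochberg adjustment, 57, 55, 63 and 62 of the 69 were called raised in these 4 contrasts, 45 of them in all 4 (0.604% of the genes tested in both experiments were), beside 3.11%, 4.95%, 19.6% and 19.1% of all genes tested. Since the rule used these contrasts, nothing is read from those counts. Without replicate 1 of the cold SC224 controls the count there was 41. It was 38 without replicate 3 of those controls, and also 38 without replicate 2 of the cold SC224 stress libraries. With only the libraries of that contrast in the fit the count was 17. Without the heat RTX430 library of uncertain time, 58 members were called in that contrast. Applied without that library, or without replicate 1 of the cold SC224 controls, the rule chose 69 genes each time, 65 of them shared with the 69 members.

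Centring contributed to the heat differences. The median gene of a group moved between stress and control, so that centring added 0.73 to every difference in heat RTX430 at ZT1 and 0.68 in heat Macia, and took off 0.17 in cold RTX430 and 0.39 in cold SC224. Without centring, all 69 members still had a difference above 0 in all 4 ZT1 contrasts and all 69 reached 1 in both cold contrasts, while 51 reached 1 in heat RTX430 and 52 in heat Macia, and 43 reached 1 in all 4. Scaling by TMM factors, which edgeR uses, in place of centring gave 72 genes, 66 of them among the 69.

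The smallest of the 4 ZT1 differences ordered the members. Its median was 1.26; it reached 1.5 in 21 members and 2 in 7. The smallest value was in cold SC224 for 23 members, in cold RTX430 for 19, in heat RTX430 for 15 and in heat Macia for 12. At the rule's edge stood Sobic.009G064100 with 1.03, Sobic.004G112400 with 1.03 and Sobic.001G485901 with 1.02, and just outside it Sobic.002G045800, Sobic.010G172200 and Sobic.004G050000 with 0.98 each. Sobic.009G064100 shows how little an edge member may move: at ZT1 in heat Macia it had 0, 0.309 and 0.512 CPM in the stress libraries, against 0, 0 and 0 CPM in the controls. Both groups lay at the floor of 3 counts or fewer in every library there, and its difference without centring was 0.35.

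Sobic.004G325900 ranked first, with 3.96 as its smallest ZT1 difference. In cold RTX430 at ZT1 it had 124, 162 and 129 CPM in the stress libraries, against 6.63, 5.06 and 9.18 CPM in the controls. In cold SC224 it had 91.4, 296 and 64.5 CPM under stress and 8.79, 2.03 and 2.31 CPM in controls. The stress libraries thus lay above the controls in both cold labels, with replicate 2 of SC224 the highest. In heat RTX430 it had 33.1, 45.5 and 62.2 CPM under stress and 0.806, 2.73 and 2.26 CPM in controls, and in heat Macia 116, 173 and 49.7 CPM under stress and 6.89, 3.51 and 4.85 CPM in controls. The groups did not overlap under heat either. The later hours looked different: at ZT6 the controls of cold SC224 already held 29.9, 122 and 66.0 CPM, where the stress libraries had 45.8, 74.7 and 63 CPM, and the groups overlapped. For the stress given at ZT9 the cold difference was 3.00 in cold RTX430 and 2.59 in cold SC224. The heat differences at ZT9 were -1.39 in heat RTX430 and 0.01 in heat Macia.

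**Figure D1:**
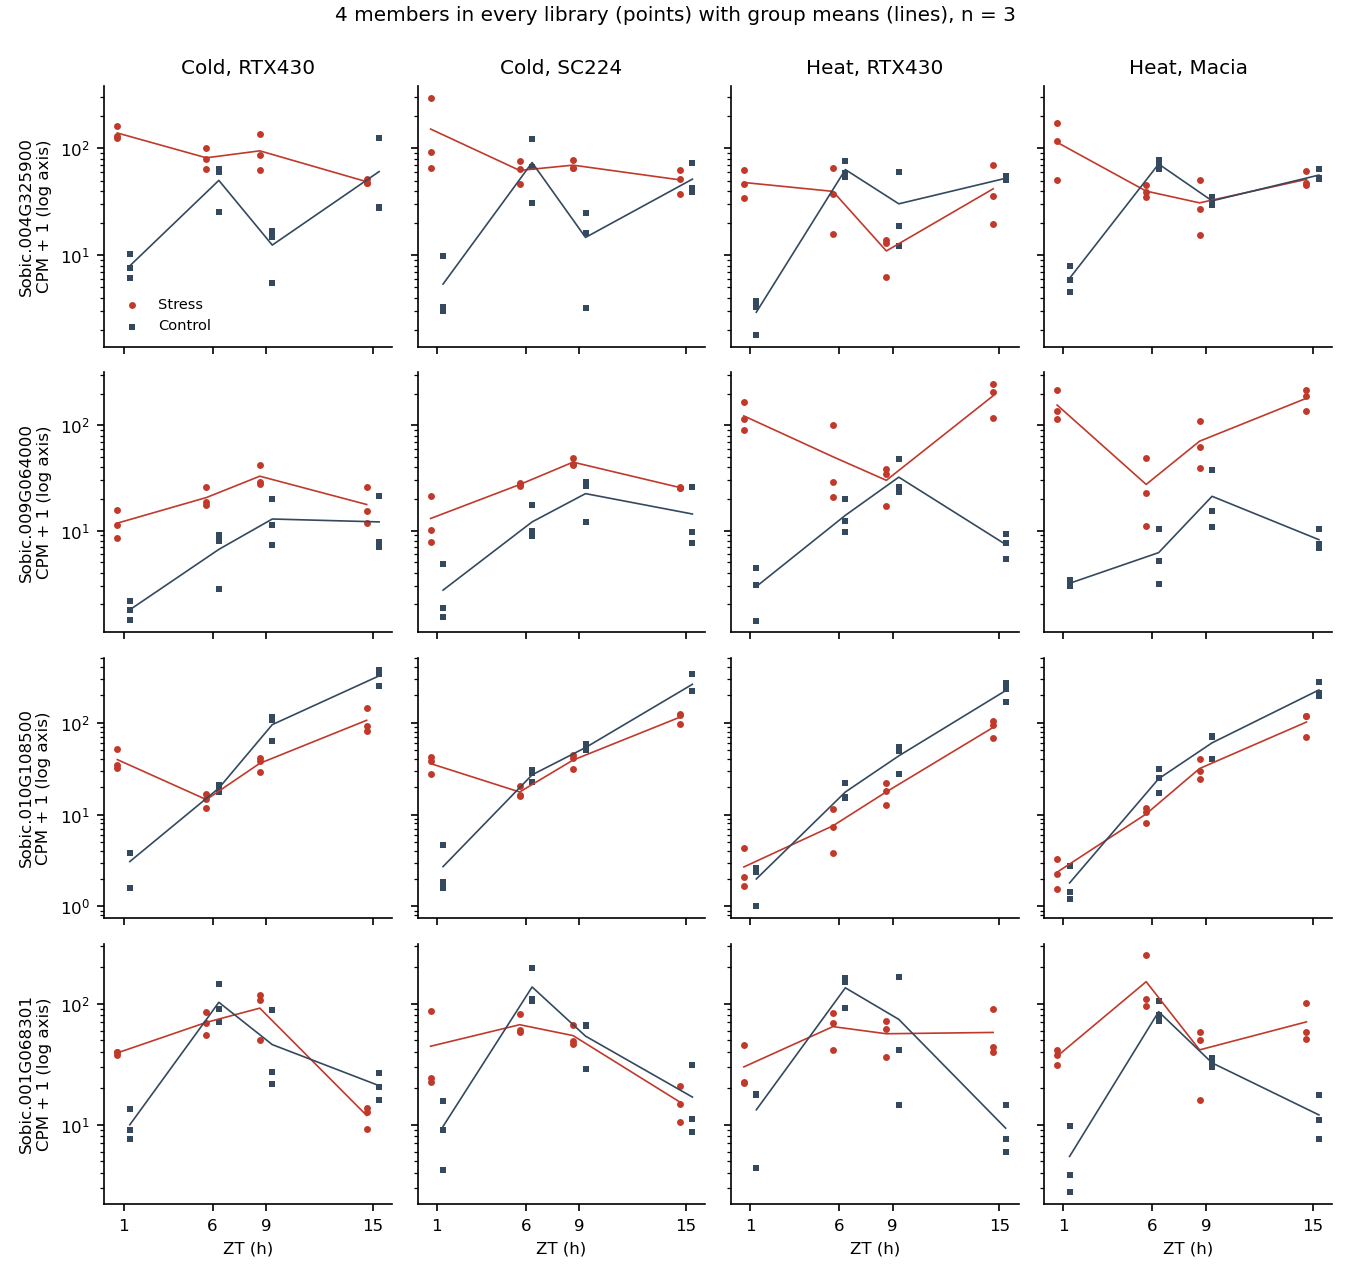
CPM plus 1 on a log axis for 4 members in every library, by ZT in h, with stress as circles and control as squares and lines through the means of 3 libraries. Sobic.004G325900 and Sobic.009G064000 are far above their controls at ZT1 in all 4 panels; Sobic.010G108500 climbs through the day in controls, and Sobic.001G068301 is highest at ZT6 in controls.

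Sobic.007G126100 ranked next, with 2.96 as its smallest ZT1 difference. Its ZT1 stress libraries held 13.9, 17.9 and 27.6 CPM in cold RTX430, against 0.569, 0.422 and 3.15 CPM in controls. The heat Macia libraries held 22.5, 28.7 and 11.3 CPM under stress and 0.405, 1.00 and 1.03 CPM in controls. No stress library fell among the controls in either label. Sobic.001G465100 (smallest difference 2.15) had 77.7, 90.5 and 56.6 CPM under stress at ZT1 in cold RTX430 and 10.8, 5.34 and 7.74 CPM in controls. Its heat RTX430 values were 41.5, 41.4 and 45.1 CPM under stress and 8.87, 22.5 and 14.7 CPM in controls, again without overlap. At ZT6 in heat RTX430 its order turned round, with 16.8, 41.6 and 28.7 CPM under stress and 47.8, 125 and 93.9 CPM in controls.

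Sobic.003G357600 (2.14) was among the members with the smallest mean difference over the 12 later contrasts, -0.65. At ZT1 it had 12.8, 15.7 and 8.20 CPM under stress in heat Macia and 4.46, 2.51 and 2.50 CPM in controls. At ZT15 the same label held 39.5, 63.1 and 33.4 CPM under stress, against 256, 256 and 307 CPM in controls, so heat went with a higher level at ZT1 and a lower one at ZT15 and neither pair of groups overlapped. Sobic.006G191600 (2.07) did likewise in heat RTX430, with 2.48, 4.97 and 4.45 CPM under stress at ZT1 beside 1.21, 0 and 0.678 CPM in controls. At ZT15 it had 0, 0 and 0 CPM in the heat RTX430 stress libraries and 6.33, 3.66 and 2.12 CPM in controls. These low levels rest on few counts.

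Sobic.003G290300 (2.02) and Sobic.010G238600 (1.98) also had a cold difference when the stress fell later in the day. Sobic.003G290300 at ZT9 in cold SC224 had 86.8, 130 and 91.5 CPM under stress and 8.04, 13.5 and 13.3 CPM in controls, a difference of 3.38. Sobic.010G238600 at ZT6 in cold RTX430 had 57.2, 41.4 and 40.9 CPM under stress and 4.11, 3.70 and 4.02 CPM in controls, a difference of 3.61. The stress and control libraries of each were apart. Under heat at ZT6, Sobic.010G238600 showed differences of only -0.33 in heat RTX430 and -0.05 in heat Macia. The remaining members of the leading 12 were Sobic.001G224900 (2.09), Sobic.001G225500 (1.86), Sobic.009G072500 (1.81), Sobic.001G068301 (1.81) and Sobic.009G064000 (1.87).

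The sizes of the cold and heat differences at ZT1, which chose the members, are described here within the 69 only. The mean of the 2 cold differences ranged from 1.09 to 4.20 (median 1.68), and the mean of the 2 heat differences from 1.07 to 6.20 (median 2.20). Heat gave the larger mean in 45 members and cold in 24. That balance depends on how the libraries are scaled. On CPM without centring the median member difference was 1.98 in cold RTX430 and 2.11 in cold SC224, above 1.27 in heat RTX430 and 1.52 in heat Macia. With TMM factors in place of centring, edgeR's median log2 fold change over members was 2.25 in cold RTX430 and 2.08 in cold SC224. It was 2.38 in heat RTX430 and 2.69 in heat Macia, so heat was the larger there too. Centring shifts every member alike, so the order of members by cold minus heat value, given below, does not depend on it. Across the 69 members, which are not independent replicates, Pearson's r between the cold and heat means was 0.045, as a description. Between the 2 labels of an experiment, which share no library, r was 0.68 under cold and 0.71 under heat. Without the 3 doubted libraries the 3 values of r were 0.086, 0.68 and 0.68. The threshold of 1 cuts all of these ranges from below. The values of r therefore do not show how cold and heat differences relate over all genes.

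**Figure D2:**
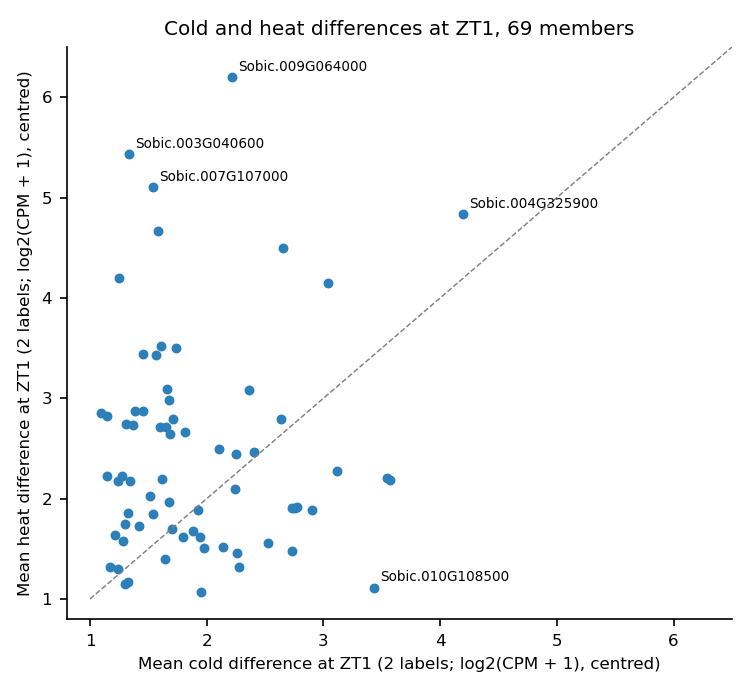
Mean heat difference against mean cold difference at ZT1 for the 69 members, each the mean of 2 labels on the centred log2(CPM + 1) scale, with the line of equal values dashed. Within the members, which the rule chose by these same differences, r was 0.045. Sobic.009G064000 stood at 6.20 under heat and 2.22 under cold, and Sobic.010G108500 at 1.11 under heat and 3.43 under cold.

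Toward heat, the largest excess of the heat over the cold mean was in Sobic.003G040600, with a cold minus heat value of -4.10. It had 69, 64.3 and 61.5 CPM in the ZT1 heat Macia stress libraries, against 1.01, 0.502 and 1.18 CPM in the controls, while in cold RTX430 it had 1.19, 1.60 and 1.58 CPM under stress and 0.190, 0 and 0 CPM in controls. Both contrasts were free of overlap, on very different scales. Sobic.009G064000 (-3.99) had 134, 217 and 113 CPM under heat in Macia at ZT1 and 2.43, 2.01 and 2.06 CPM in controls. In cold RTX430 it had 7.53, 14.6 and 10.3 CPM under stress and 0.758, 0.422 and 1.15 CPM in controls. Its heat response was as plain at ZT15, where heat RTX430 held 115, 207 and 247 CPM under stress and 8.20, 4.33 and 6.67 CPM in controls, but at ZT9 that label had 33.5, 16.3 and 37.3 CPM under stress and 24.8, 46.5 and 22.3 CPM in controls, with overlap. Sobic.007G107000 (-3.56) was uneven. It reached 597, 424 and 175 CPM under heat in Macia at ZT1, against 2.03, 5.77 and 1.18 CPM in controls. In cold RTX430 its values of 3.57, 5.76 and 106 CPM under stress and 2.08, 17.3 and 21.8 CPM in controls overlapped, and replicate 3 was the only stress library above the controls.

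Toward cold, the largest excess was in Sobic.010G108500 (cold minus heat 2.32). At ZT1 it had 33.7, 50.7 and 31.5 CPM in the cold RTX430 stress libraries and 2.84, 2.81 and 0.573 CPM in the controls. In heat RTX430 it had 0.677, 3.31 and 1.07 CPM under stress and 1.61, 0 and 1.36 CPM in controls. The heat libraries overlapped with their controls, and its 2 heat differences without centring were 0.43 and 0.39. Sobic.002G254200 (1.38) had 59.5, 128 and 41.6 CPM under cold in SC224 and 2.93, 3.05 and 4.62 CPM in controls, beside 9.47, 16.6 and 16.9 CPM under heat in RTX430 and 10.9, 6.82 and 2.94 CPM in controls. Its cold groups were apart and its heat RTX430 groups overlapped. Sobic.006G191600 (1.34) had 16.6, 20.5 and 21.1 CPM under cold in RTX430 and 0.190, 1.83 and 0.287 CPM in controls.

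For stresses given after ZT1 the differences were smaller, to different degrees at each hour. The median member difference in cold RTX430 was 0.49 at ZT6, then 0.58 at ZT9, with -0.11 at ZT15, and in cold SC224 it was 0.30, 0.79 and 0.18 at these times. In heat RTX430 it was 0.0075, -0.13 and 0.92, and in heat Macia 0.16, 0.25 and 0.55. The medians of all genes lay between -0.10 and 0.02. The member medians were highest at ZT6 and ZT9 under cold and at ZT15 under heat. Those of heat Macia at ZT6 and ZT9, of heat RTX430 at ZT6 and of cold SC224 at ZT15 also lay above the median gene. Those of heat RTX430 at ZT9 and of cold RTX430 at ZT15 lay below it. The difference between the stresses was not tested. Without the doubted ZT15 control library the heat RTX430 median there was 1.02. The rule asked of these 12 contrasts only that some difference per stress be below 1, so they are a description, and no p is given for a single member there.

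**Figure D3:**
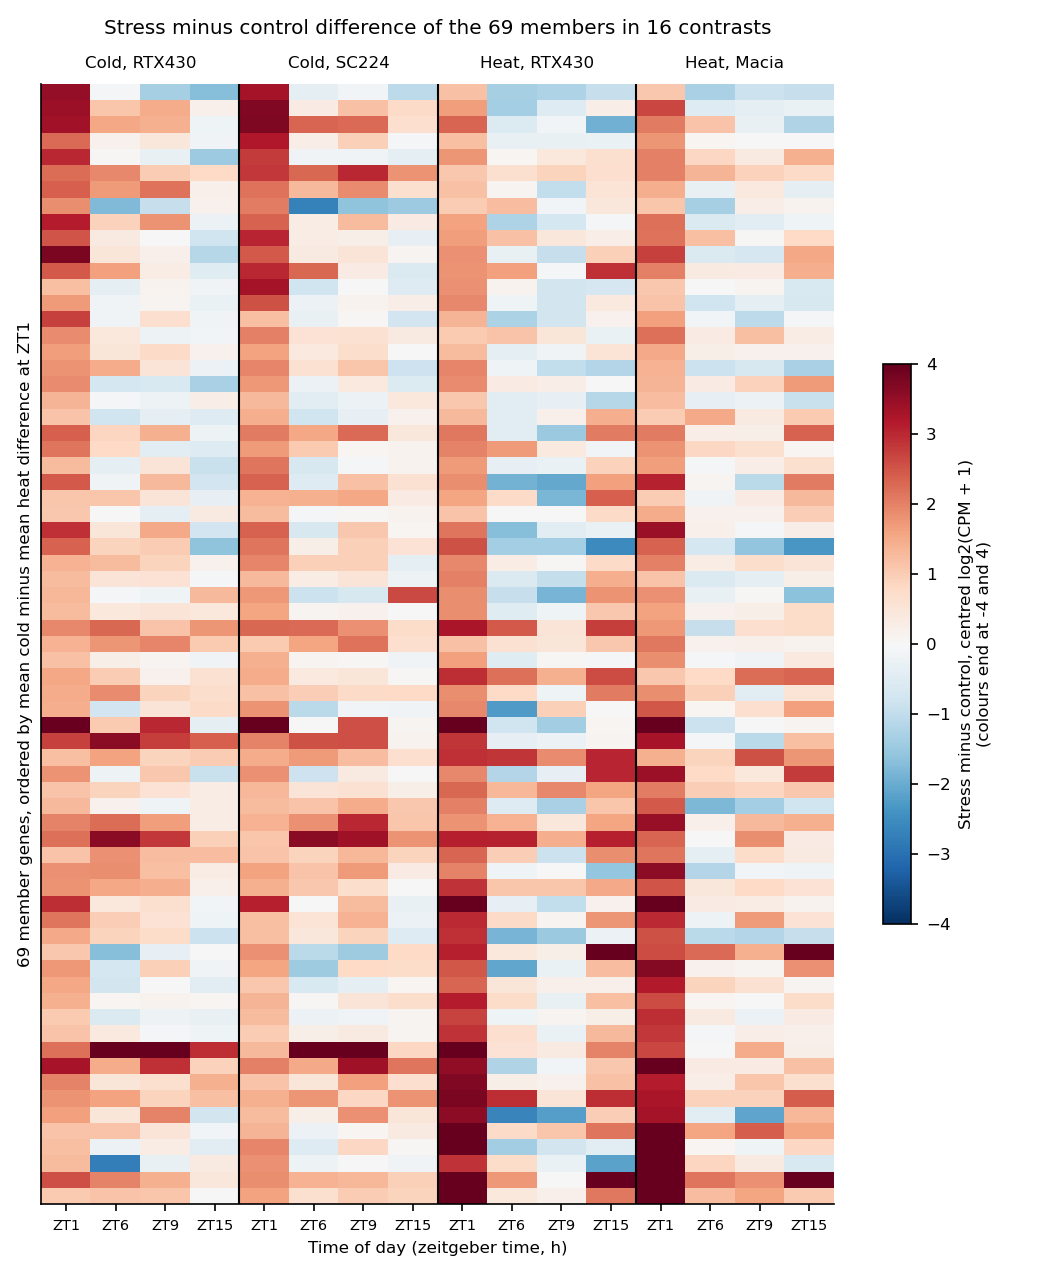
Stress minus control difference (centred log2(CPM + 1), colours ending at -4 and 4) of the 69 members in rows, by experiment, label and ZT in columns, ordered from the largest excess of cold at the top to the largest excess of heat at the bottom. ZT1 is high in all 4 blocks by the rule. For stresses given at the other times, high values are mostly at ZT6 and ZT9 under cold and at ZT15 under heat.

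A difference of 1 or more was seen at ZT6 in 26 members in cold RTX430, where 4.77% of all genes had one, and in 20 in cold SC224 (4.42%). At ZT9 the counts were 24 in cold RTX430 (4.46%) and 28 in cold SC224 (5.04%). At ZT15 they were 9 (2.89%) and 7 (3.77%). Heat ran otherwise, with 14 members at ZT6 in heat RTX430 (10.8%) and 8 in heat Macia (5.88%), then 6 (5.46%) and 12 (9.25%) at ZT9, and 32 (15.5%) and 23 (11.3%) at ZT15. Both cold labels reached 1 in 17 members at ZT6, 21 at ZT9 and 2 at ZT15, where 2.60%, 2.18% and 1.22% of all genes did. Both heat labels reached it in 2, 4 and 17 members, where 4.25%, 4.45% and 9.24% of all genes did. Without the doubted ZT15 control library the ZT15 counts were 35 in heat RTX430 and 19 in both heat labels. A difference of -1 or less was seen in 14 members in heat RTX430 at ZT6 (10.7% of all genes) and in 10 at ZT9 (5.71%).

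By edgeR's quasi-likelihood test, 18 members were called raised in cold RTX430 at ZT6 (2.37% of all genes tested), 13 at ZT9 (1.76%) and 2 at ZT15 (0.789%), where 1 more was lowered (0.214%). Cold SC224 gave 14 raised (2.04%), 18 (2.2%) and 2 (1.01%). Heat RTX430 gave 10 raised (7.93%) and 7 lowered (5.37%) at ZT6, 1 raised (3.02%) and 3 lowered (1.05%) at ZT9, and 29 raised (16.3%) and 6 lowered (19.2%) at ZT15. Heat Macia gave 4 raised (3.52%) and 1 lowered (1.65%), then 10 raised (7.65%) and 1 lowered (4.43%), and at ZT15 15 raised (10.7%) and 2 lowered (8.74%). Without the control library of heat RTX430 at ZT15 that carried genes of other labels, 26 members were raised there. Both labels of an experiment raised 12 of the members at ZT6, 11 at ZT9 and 0 at ZT15 under cold, where 1.59%, 1.19% and 0.406% of all genes were raised in both, and 1, 0 and 14 under heat, where 2.77%, 2.65% and 8.89% were. These counts depended on the fit: with only the libraries of a contrast, cold RTX430 at ZT9 gave 2, and cold SC224 gave 8 at ZT6 and 10 at ZT9, and with library totals alone cold RTX430 at ZT6 gave 10. Single libraries also moved several counts by over 1.5 times and are named with the alternatives.

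**Figure D4:**
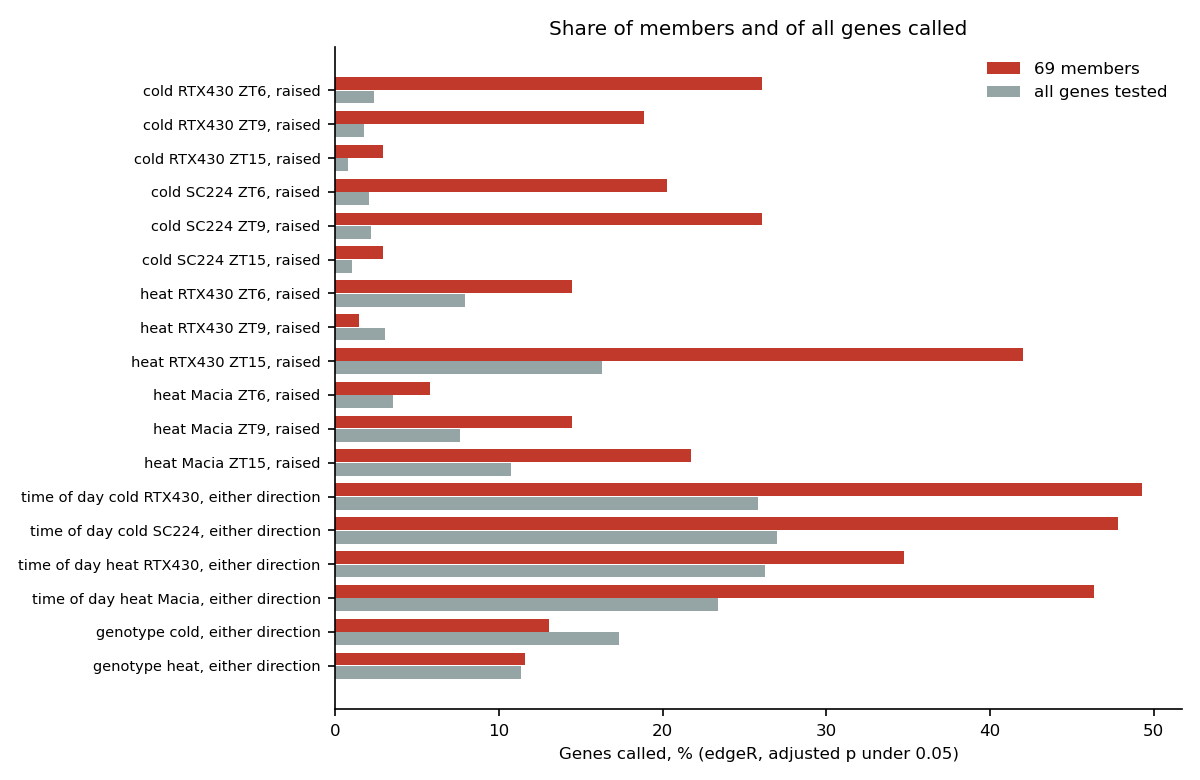
Percent of the 69 members and of all genes tested that edgeR called (adjusted p under 0.05): raised in the 12 later stress contrasts, and changed in either direction by time of day and by genotype in controls. The member bars lie above the gene bars in most rows, for example 42% against 16.3% in heat RTX430 at ZT15; under heat RTX430 at ZT9 and for genotype in the cold experiment they lie below.

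Members differed in their responses to the stresses given at the later hours, each of them a separate 1 h stress with its own controls. In 15 members all 12 later differences were below 1, in 29 a later difference of 1 or more came under both stresses, in 10 under cold only and in 15 under heat only, where all genes split as 70.4%, 5.12%, 7.53% and 16.9%. By edgeR, 22 members were called raised in none of the 12 later contrasts, as were 78.6% of all genes. The largest mean over the later contrasts was in Sobic.002G225700 (2.21), a gene with almost no transcript in controls. In cold SC224 at ZT6 it had 33.5, 24.7 and 15 CPM under stress and 0, 0 and 0 CPM in controls, and at ZT1 0.838, 0 and 6.5 CPM under stress and 0, 0.254 and 0 CPM in controls. The ZT6 groups were far apart, while at ZT1 a stress library lay at 0. Sobic.001G247300 (2.17) had 32.1, 19 and 30.3 CPM under cold in RTX430 at ZT6 and 1.83, 2.38 and 1.61 CPM in controls, and in heat RTX430 at ZT15 it had 13, 16.3 and 19.4 CPM under stress and 1.12, 2.33 and 1.52 CPM in controls. Neither contrast overlapped. Sobic.009G064000 was the third, with 1.92.

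At the other end, Sobic.010G108500 had the smallest later mean, -0.93. In heat Macia at ZT15 it had 117, 117 and 68.0 CPM under stress and 275, 210 and 193 CPM in controls, and in cold RTX430 at ZT9 it had 37, 28.1 and 40.2 CPM under stress and 107, 114 and 61.5 CPM in controls. The stress libraries were the lower ones without overlap, opposite to ZT1. Sobic.004G112400 (-0.63) varied between replicates: at ZT6 in cold SC224 it had 2.46, 1.67 and 0.855 CPM under stress and 2.72, 53.6 and 1.28 CPM in controls, where 1 control library stood far above the other 5 and the difference was -2.70.

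The members' control levels were lowest at ZT1. Among the 4 times, the ZT1 control was the lowest in 43 members in cold RTX430, 41 in cold SC224, 40 in heat RTX430 and 36 in heat Macia, which is 62.3%, 59.4%, 58% and 52.2% of them, where 29.6%, 31.4%, 31.8% and 31.1% of all genes were lowest at ZT1. A low ZT1 control helps a gene to meet the rule, so this is a description. The ZT1 control minus the mean of the later controls had a median over members of -0.86 in cold RTX430, -1.03 in cold SC224, -0.87 in heat RTX430 and -0.72 in heat Macia, where the medians over all genes were 0.13, 0.094, -0.016 and 0.057. The same quantity for the ZT1 stress level was 1.00, 0.89, 1.29 and 1.71 in these labels, with all-gene medians of 0.063, 0.060, -0.064 and -0.0076, so under stress the median member stood above its later controls. Every later control was exceeded by the ZT1 stress level in 42 members in cold RTX430, 40 in cold SC224, 43 in heat RTX430 and 51 in heat Macia, where 37.2%, 34%, 35.8% and 38.4% of all genes did so. The rule favours a high ZT1 stress level as well, so these stress values are also a description. Without the doubted libraries, the ZT1 control was the lowest in 43 members in cold SC224 and 39 in heat RTX430, and the counts of 40 and 43 above every later control stood as given.

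**Figure D5:**
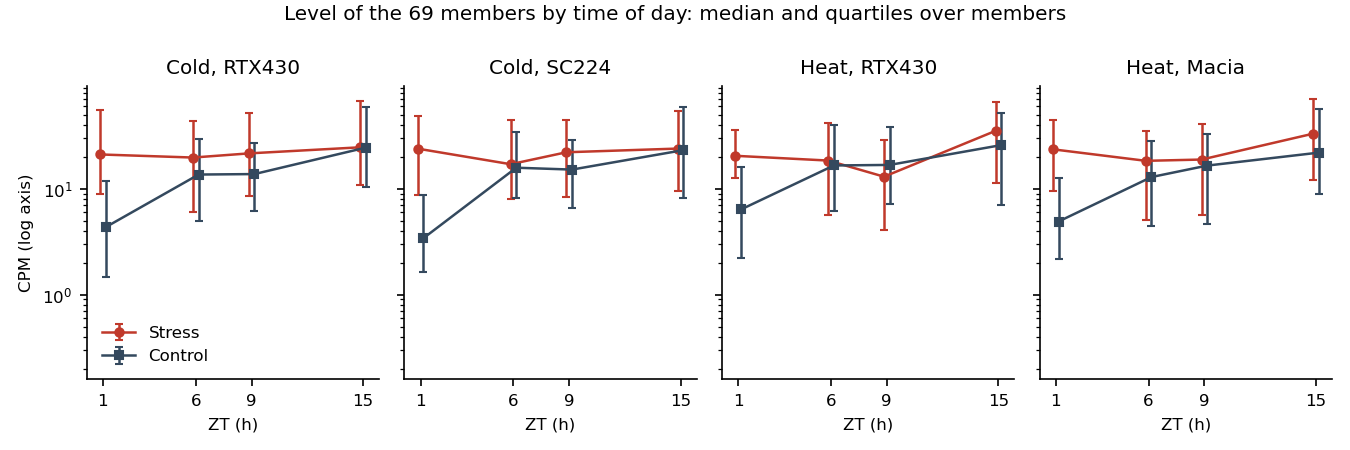
Median (points) and quartiles (bars) over the 69 members of the group mean CPM, on a log axis, against ZT in h, for stress and control in each label. Controls are lowest at ZT1 (3.41 to 6.37 CPM) and the ZT1 stress medians (20.5 to 23.9 CPM) are near the later levels of either condition. CPM is not centred here. On the centred scale the median member under stress at ZT1 stood above its later controls in every label, so CPM levels at different hours are not directly comparable.

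Change with time of day was tested among the controls of ZT6, ZT9 and ZT15 alone, without the ZT1 libraries. The rule still bears on this contrast. A low ZT1 control helps a gene to meet the rule, which favours genes whose level varies with the hour. The rule also touched these libraries through its mild condition on the later differences and through the minimum mean CPM over all 96 libraries. A gene low at ZT1 can pass that minimum through a high level at a later hour. The members' counts and shares are therefore a description beside those of all genes. By edgeR's joint quasi-likelihood test over these times, 34 of the 69 members changed in cold RTX430 (25.8% of all genes tested), 33 in cold SC224 (27%), 24 in heat RTX430 (26.2%) and 32 in heat Macia (23.4%). Among genes with a mean of 2 CPM or more, like the members, the shares of all genes were 27.3%, 28.4%, 28.1% and 24.9%. The members' shares were thus 49.3%, 47.8%, 34.8% and 46.4%. Without the doubted ZT15 control library the heat RTX430 count was 21. Of the 69, 14 changed in all 4 labels, 12 in 3, 8 in 2, 15 in 1 and 20 in none. Of the genes tested in both experiments, 10.9%, 7.37%, 10.3%, 19% and 52.5% fell into these classes. The 14 had no common direction: ZT15 was above ZT6 in all labels in 6 and below it in 7, and the other member was mixed.

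Sobic.004G285800 had the firmest change, with adjusted p of 1.07e-05 or less in all 4 labels. In cold RTX430 controls it had 7.99, 14.5 and 10.6 CPM at ZT6, 71.0, 72.6 and 90.8 CPM at ZT9, and 146, 107 and 144 CPM at ZT15. The times did not overlap, and ZT15 exceeded ZT6 by 3.08 in log2 fold change in that label and by 2.04 in heat Macia. At ZT1 the same member had 35.3, 30.4 and 30.3 CPM under cold in RTX430 and 4.93, 5.06 and 7.17 CPM in controls. Sobic.010G108500 also climbed through the day (largest adjusted p 7.66e-05), with 19.9, 16.7 and 18.6 CPM at ZT6, 107, 114 and 61.5 CPM at ZT9 and 249, 378 and 341 CPM at ZT15 in cold RTX430 controls, each time above the one before. Sobic.001G068301 went the other way (largest adjusted p 8.59e-05). Its heat RTX430 controls held 91.2, 163 and 149 CPM at ZT6, 13.5, 166 and 40.3 CPM at ZT9 and 13.4, 5 and 6.67 CPM at ZT15, with ZT9 overlapping ZT6 and ZT15 the lowest. Its ZT15 log2 fold change against ZT6 was -4.76 there.

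Genotype labels were compared in controls averaged over ZT6, ZT9 and ZT15. SC224 differed from cold RTX430 in 9 members (17.3% of all genes tested differed), 5 of them higher and 4 lower in SC224. Macia differed from heat RTX430 in 8 (11.3% of all genes), 1 higher and 7 lower in Macia. These shares of 13% and 11.6% of the members are near or below those of all genes. The heat count was 6 without the doubted ZT15 control library of heat RTX430, and fell to 3 when replicate 2 of its ZT9 controls was left out.

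Sobic.001G224900 gave the smallest adjusted p in the cold experiment. At ZT6 its controls had 8.41, 12.8 and 6.42 CPM in SC224 and 2.05, 5.02 and 1.93 CPM in RTX430, and the labels did not overlap. Over the 3 times SC224 was higher by a log2 fold change of 1.90 ± 0.38 (SE, adjusted p = 0.000203, edgeR). Macia was lower than heat RTX430 in the same gene, at -1.93 ± 0.57 (SE, adjusted p = 0.0187). Sobic.002G328400 was lower in SC224 than in cold RTX430 (-1.19 ± 0.29, SE, adjusted p = 0.00245), and Sobic.010G218100 higher (1.07 ± 0.27, SE, adjusted p = 0.00345).

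In the heat experiment Sobic.009G064100 led: its ZT6 controls had 0, 0 and 0.222 CPM in Macia and 1.74, 0.572 and 1.77 CPM in RTX430. That is close to no transcript in Macia, and the fitted log2 fold change of -3.09 (adjusted p = 0.00389) rests on few counts and is no bound. Sobic.003G284300 had 37.4, 43.8 and 40.9 CPM in Macia controls at ZT6, against 61.7, 116 and 89.7 CPM in those of RTX430, and no library overlapped. Its log2 fold change over the 3 times was -1.0 ± 0.25 (SE, adjusted p = 0.00502). Sobic.009G213400 was lower in Macia too (-0.74 ± 0.19, SE, adjusted p = 0.00664). The 3 members that differed in both experiments were Sobic.001G224900, Sobic.009G064100 and Sobic.003G284300, each higher in SC224 than in cold RTX430 and lower in Macia than in heat RTX430. The RTX430 labels of the 2 experiments differ in their gene set, as described above, and heat RTX430 was near cold SC224 in it. Whether labels were exchanged was not tested; an exchange within an experiment would turn the sign of its genotype differences, so these directions hold for the labels as given.

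Whether the stress response itself differed between genotype labels was tested at ZT6, ZT9 and ZT15 as the interaction of label and stress. None (0) of the 69 members passed in any of these 6 tests by edgeR with adjustment over all genes, and DESeq2 also called 0. Of all genes tested, 0%, 0.00548% and 0% passed in the cold experiment at these times and 0%, 0.00536% and 0.0858% in the heat experiment. At an unadjusted p under 0.05 the counts were 0, 4 and 3 members in the cold experiment and 16, 5 and 9 in the heat experiment, where 2.56%, 6.3%, 3.13%, 8.48%, 3.01% and 9.63% of all genes reached it. The same interaction at ZT1 was not tested, since the rule asks that the members respond in both labels there. The response differed between the 3 later times in 0 members in cold RTX430 (0.252% of all genes) and 1 in cold SC224 (0.0384%). Under heat it differed in 7 in heat RTX430 (2.89%) and 1 in heat Macia (0.649%). For the 0, an unadjusted p under 0.05 by edgeR was reached by 19 members (8.77% of all genes) and DESeq2 called 6. The rule left out genes raised by 1 or more at every time under a stress, which favours responses that vary by time, so these counts are a description.

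By the chromosome number in their identifiers, the members were spread over all 10 chromosomes. Chromosome 1 held 16 of the 69 (23.2%), where 18.7% of the 16216 genes lie, and chromosome 10 held 8 (11.6%, against 8.23%). Sobic.009G064000 and Sobic.009G064100 follow each other directly in identifier order. Their ZT1 differences in heat Macia were 6.30 for Sobic.009G064000 and 1.03 for Sobic.009G064100. Sobic.001G224900 and Sobic.001G225500 lie 6 genes apart, with smallest ZT1 differences of 2.09 for Sobic.001G224900 and 1.86 for Sobic.001G225500. The files give no coordinates or gene lengths, so the levels of different genes were not compared with each other.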

How the data were processed

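Poly(A) RNA of leaves was sequenced as single-end reads of 75 nt, per the labels' protocols. The authors deposited 1 table of raw counts that covers 34129 genes and 96 libraries, in whole numbers whose totals vary by library. HISAT2 and DESeq2 are named in the submitters' processing notes, without versions; the genome build, annotation, strand use and handling of multi-mapped reads are not given in the sources used here, so genes with near-identical or overlapping copies are uncertain.

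Groups came from the sample labels. The earliest time is ZT0 in the treatment text and ZT1 in the sample labels, and ZT1 was used. The members and lists were chosen with earlier results of these data known. CPM, the pseudocount of 1 and the centring follow the rule that defines the members. The deposited counts were tested in R 4.3.3 with edgeR 4.0.16: each experiment was fitted apart over its 48 libraries and 16 group means, after filterByExpr (minimum count 10, minimum total 15), which kept 18248 genes (cold experiment) and 18648 (heat), all 69 members among both. TMM factors, the quasi-likelihood F-test and Benjamini-Hochberg adjustment over all genes tested were used, with a threshold of 0.05. The tested genes held at least 99.55% of each library's counts, and edgeR's common biological coefficient of variation came to 0.354 for cold and 0.394 for heat. The functions were tested on simulated counts. The SDs are over 3 libraries and the SEs were derived from edgeR's fit, so both include the spread between libraries. The floor of 3 counts covers counting error only, and PCR copies were not told apart.

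Named genes are the 12 members with the largest smallest ZT1 difference, the 3 on each side of the threshold, the 3 with the largest and the 3 with the smallest mean later difference, the 3 leading each time-of-day or genotype test, and the 3 most tilted to cold and to heat. Of the identifiers, 0 matched the 32945 genes of the RefSeq table given as reference, so the planned annotation lists, leaf marker check, protein sequences and promoter motifs were not used here. The labels give no other batch. DESeq2 1.42.0, RLE factors, library totals alone, no filter, a replicate block, only the libraries concerned, and leaving out each library were the alternatives. The tests of response by time of day and of genotype by stress were chosen after seeing the data.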

Additional observations from a re-analysis of the deposited data

Results flagged for a closer look

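Within a label, the stress response of a member differed between ZT6, ZT9 and ZT15 by edgeR's joint test in 7 members in heat RTX430, 1 in heat Macia and 1 in cold SC224. What set these apart is the test of the difference between times itself, over 3 libraries a group. The rule used the same later differences and left out genes whose differences all reached 1 under a stress. That favours responses that vary by time, so the calls and the adjusted p below are a description. The 7 were Sobic.001G048000, Sobic.009G064000, Sobic.001G068301, Sobic.001G225500, Sobic.004G285800, Sobic.006G197800 and Sobic.010G179800.

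Sobic.001G048000 was called in both heat labels. In heat RTX430 it had 49.3, 63.1 and 96.9 CPM under stress at ZT15 and 0.745, 0.333 and 0.303 CPM in controls, while at ZT9 it had 21, 18.3 and 25.9 CPM under stress and 12.1, 30.6 and 15 CPM in controls. The ZT15 groups were far apart and the ZT9 groups overlapped (adjusted p = 0.00013, edgeR). In heat Macia it had 64.2, 31.8 and 171 CPM under stress at ZT15 and 0.445, 1.33 and 0.189 CPM in controls (adjusted p = 0.00793). Sobic.004G285800 went the other way in heat RTX430, with 49.6, 43.2 and 43.1 CPM under stress at ZT6 and 11.3, 13.2 and 11.7 CPM in controls, and overlapping groups at ZT15 (adjusted p = 0.0148). In cold SC224 the member was Sobic.005G105000 (adjusted p = 0.00718), with 46.7, 49.2 and 49.1 CPM under stress at ZT6 and 27, 32.9 and 25.7 CPM in controls, and 59.6, 46 and 48.1 CPM under stress at ZT15 beside 73.5, 58.8 and 85.2 CPM in controls.

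Leaving out each library in turn gave 4 to 10 members in heat RTX430, 0 to 1 in cold SC224, 0 to 2 in heat Macia and 0 to 3 in cold RTX430. Heat RTX430 gave 4 without replicate 2 of its ZT15 controls and 6 without the doubted replicate 1. The call in cold SC224 was lost without stress replicate 2 or 3 of ZT15, and that in heat Macia without replicate 3 of either ZT15 group; without stress replicate 3 of ZT6 heat Macia gave 2. Cold RTX430 gave 3 without stress replicate 3 of ZT15, and 1 without replicate 3 of either ZT9 group. DESeq2 called 10 in heat RTX430, 2 in cold SC224 and 4 in heat Macia. Fitting the libraries concerned alone left 2 in heat RTX430 and 0 in the other 2 labels.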

How the results depend on the processing

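Against 69 genes, the selection rule gave 72 with TMM-scaled CPM and no centring (66 shared with the 69), 65 with no minimum CPM (51 shared) and 74 with a pseudocount of 0.5 (67 shared). Leaving out each ZT1 library in turn gave 64 to 77 genes, at least 59 of them shared, the fewest without replicate 2 of the cold SC224 stress libraries. Of 171 counts recomputed under other settings with all libraries kept, 152 stayed within 1.5 times, all those with RLE factors among them. The 152 include the genotype by stress counts, which were 0 in the main fit and stayed 0, and so had little room to move.

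Where only the libraries concerned were fitted, counts of raised members became 17 in cold SC224 at ZT1, 8 at ZT6 and 10 at ZT9, 2 and 0 in cold RTX430 at ZT9 and ZT15, 4 and 0 in heat RTX430 at ZT6 and ZT9, and 2 and 8 in heat Macia at ZT6 and ZT15. In the same fits 21 members changed by time of day in cold RTX430 and 5 by genotype in the heat experiment. Such fits estimate the spread from fewer libraries. With library totals alone the raised counts were 10 in cold RTX430 at ZT6, 8, 11 and 1 in cold SC224 at ZT6, ZT9 and ZT15, and 6 in heat Macia at ZT9. DESeq2 raised 4 in cold SC224 at ZT15 and 2 in heat RTX430 at ZT9, and no filter on low counts gave 1 in cold SC224 at ZT15. The causes were not tested.

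Leaving out 1 library gave 42 to 56 raised members in cold RTX430 at ZT1, 12 to 16 at ZT6, 10 to 15 at ZT9 and 0 to 6 at ZT15. Cold SC224 gave 38 to 49, 9 to 12, 11 to 16 and 0 to 1 at these times. Heat RTX430 gave 50 to 58, 4 to 12, 1 to 3 and 20 to 26, and heat Macia 52 to 61, 0 to 5, 3 to 10 and 7 to 14. Members changed by time of day numbered 26 to 35 in cold RTX430, 26 to 32 in cold SC224, 18 to 27 in heat RTX430 and 24 to 29 in heat Macia, and by genotype 6 to 11 in the cold and 3 to 11 in the heat experiment. Genotype by stress stayed at 0 in each of these fits.

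A count moved by over 1.5 times without 1 library in these cases. The heat genotype count was 4 without Macia ZT6 control replicate 1, 5 without replicate 3, 5 without Macia ZT9 control replicate 3, 5 without RTX430 ZT6 control replicate 3 and 3 without RTX430 ZT9 control replicate 2. The other cases are counts of raised members. In cold RTX430 at ZT15 the raised count was 1 without control replicate 1 or 3 or stress replicate 1, 0 without control replicate 2 and 6 without stress replicate 3. In cold SC224 the raised count was 0 or 1 at ZT15 whichever library was left out, and 9 at ZT6 and 11 at ZT9 without control replicate 1. In heat RTX430 it was 4 at ZT6 and 3 at ZT9 without stress replicate 1. In heat Macia it was 0 at ZT6 without control replicate 1, 2 without control replicate 2 and 1 without stress replicate 3. At ZT9 there it was 6, 4 and 4 without control replicates 1, 2 and 3 and 5 and 3 without stress replicates 1 and 3, and at ZT15 it was 8 without control replicate 2 and 7 without stress replicate 3.

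Stress and control libraries share replicate numbers. Over 46 same-numbered pairs the correlation of deviations from the group means was -0.455 to 0.586 (median -0.00783), and every pair exceeded 0.1 in 1 of 16 contrasts, so the numbers were not taken as pairs. With the replicate number as a block, 35 members in cold RTX430, 35 in cold SC224, 25 in heat RTX430 and 33 in heat Macia changed by time of day, and no count moved by 1.5 times.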
